A study of Homo sapiens with 24 samples.

Results

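The genes described here are 51 genes of DNA replication and of the step from G1 into S phase and form a list drawn up by known role. They cover the replicative helicase and its activators, origin licensing, polymerases and primase, the sliding clamp and its loader, single-strand binding, Okazaki fragment maturation, nucleotide supply, G1/S regulators, and chromatin and histone supply. Of the 51, 31 could be tested among 12149 features, and the remaining 20 gave too little signal. The list was drawn up with earlier results of these data known, so counts of its members are not independent of the data.

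The series measured total RNA of N/TERT1, an immortalized human keratinocyte line, on 24 Illumina bead arrays in 6 groups of 4. Of the groups held in 1.2 mM calcium until day 6, cells of the first had been given 50 µM EGBG together with 1 mM spermidine and spermine (SDSM) at day 3, and those of the second 50 µM EGBG alone at day 3. The third group had been given 1 mM SDSM at day 3, the fourth 1 mM putrescine (PUT) at day 3, and the fifth, called day 6, no compound. Undifferentiated cells, the sixth group, were in 0.3 mM calcium and labelled day 0, so they differ from day 6 cells both in calcium and in the day of harvest. EGBG inhibits AMD1, an enzyme needed to build spermidine and spermine from putrescine, and spermidine and spermine are the polyamines made downstream of it. Whether 1 mM refers to each of spermidine and spermine or to their mixture is ambiguous in the labels. The design text calls the 4 arrays of a group biological replicates but does not describe separate cultures, so p-values measure the spread between these arrays. All groups come from a single immortalized line.

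Replication origins are licensed in G1, when the origin recognition complex, CDC6 and CDT1 load the MCM2 to MCM7 helicase ring onto DNA. On entry into S phase, CDC45 and the GINS complex activate the ring, and polymerases extend DNA behind it with the help of the PCNA clamp. Many of these genes are transcribed by E2F factors, which the retinoblastoma protein holds back until cyclin-dependent kinases act. In epidermis, dividing keratinocytes lie in the basal layer and leave the cell cycle as they differentiate.

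The promoter sequences below belong to the 6 individually described members with the largest changes between day 6 and undifferentiated cells. The size of that change is the only reason they are shown together. Each is the 250 bases before the annotated gene start in RefSeq on GRCh38.p14, read 5′ to 3′ on the strand of the gene. Capitals mark matches to the E2F-type letters TTTCCCGC, TTTCGCGC or TTTGGCGC on either strand. CDC45 (helicase activation) is at chr22:19479670-19479919 on the plus strand, CDT1 (licensing) at chr16:88803539-88803788 on the plus strand, and GINS2 (a GINS subunit) at chr16:85688955-85689204 on the minus strand. CHAF1B (a subunit of the histone chaperone CAF-1) is at chr21:36385142-36385391 on the plus strand, PRIM1 (the catalytic primase subunit) at chr12:56752324-56752573 on the minus strand, and MCM6 (a helicase subunit) at chr2:135876444-135876693 on the minus strand.
CDC45: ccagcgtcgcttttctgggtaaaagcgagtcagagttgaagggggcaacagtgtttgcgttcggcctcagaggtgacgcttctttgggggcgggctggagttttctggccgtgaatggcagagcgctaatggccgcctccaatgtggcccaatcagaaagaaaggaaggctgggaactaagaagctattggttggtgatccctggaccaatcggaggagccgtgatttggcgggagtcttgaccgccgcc
CDT1: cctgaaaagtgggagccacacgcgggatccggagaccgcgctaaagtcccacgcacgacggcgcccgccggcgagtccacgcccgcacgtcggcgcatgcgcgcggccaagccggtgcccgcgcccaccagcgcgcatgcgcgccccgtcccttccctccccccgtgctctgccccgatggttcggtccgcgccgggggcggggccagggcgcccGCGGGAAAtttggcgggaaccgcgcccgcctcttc
GINS2: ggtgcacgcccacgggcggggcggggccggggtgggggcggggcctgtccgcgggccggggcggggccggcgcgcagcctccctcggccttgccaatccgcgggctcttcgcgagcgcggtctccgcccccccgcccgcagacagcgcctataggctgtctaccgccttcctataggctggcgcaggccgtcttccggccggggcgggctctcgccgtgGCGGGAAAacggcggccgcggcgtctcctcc
CHAF1B: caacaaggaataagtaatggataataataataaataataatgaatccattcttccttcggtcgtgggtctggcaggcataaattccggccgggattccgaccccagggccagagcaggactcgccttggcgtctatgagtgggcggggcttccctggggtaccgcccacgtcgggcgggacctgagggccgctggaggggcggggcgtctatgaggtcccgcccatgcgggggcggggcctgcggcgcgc
PRIM1: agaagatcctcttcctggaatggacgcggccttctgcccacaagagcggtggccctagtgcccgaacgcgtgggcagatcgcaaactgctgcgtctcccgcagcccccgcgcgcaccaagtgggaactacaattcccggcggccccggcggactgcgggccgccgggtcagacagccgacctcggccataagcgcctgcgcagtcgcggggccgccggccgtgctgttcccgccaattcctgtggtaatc
MCM6: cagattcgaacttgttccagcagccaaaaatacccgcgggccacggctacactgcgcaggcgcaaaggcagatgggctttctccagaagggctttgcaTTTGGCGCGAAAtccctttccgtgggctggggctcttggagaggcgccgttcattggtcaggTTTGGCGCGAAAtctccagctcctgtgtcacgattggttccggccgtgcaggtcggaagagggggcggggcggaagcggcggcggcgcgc

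CDT1 and GINS2 each held 1 such match, 35 and 31 bases before the start, and MCM6 held 4, which overlap in pairs on opposite strands. CDC45, CHAF1B and PRIM1 held none of these letters in the window. Other E2F-type letters were not searched, so this does not show that such sequence is absent there. The reference table held 44 of the 51 members, and 14 of the 44 (31.8%) had a match, against 649 of all 27305 promoters of the same length (2.38%). Among members lower at day 6 the count was 8 of 19, and among members higher with EGBG it was 5 of 15. CCAAT, searched on both strands, was found in 23 of 44 members (52.3%) against 33% of all promoters, and TTTGAA in 1 of 44 (2.27%) against 13.6%. A match to these letters describes the sequence and does not show that a factor binds there.

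Each array detected 10348 to 13089 of 47304 probes (median 11529.5), detection meaning a p-value under 0.01 against that array's negative controls. Within-group correlations between arrays were 0.965 to 0.991, and 0 pairs of arrays were identical. KRT5 and KRT14, basal keratins, were detected on all 24 arrays, while TP63 has no listed probe. Of the other keratinocyte markers, KRT10 was detected on 24 arrays, KRT1 on 21 and IVL on 19. In undifferentiated, day 6 and EGBG cells KRT10 averaged 10.78, 15.31 and 15.49, and KRT1 6.04, 14.31 and 13.77. IVL averaged 5.65, 9.77 and 6.61 in the same order. Among markers of other cells, the endothelial list was undetected (0 of 3 genes), and PTPRC, CD3E, MLANA, TYR, COL1A2 and COL3A1 were detected on 0 arrays. COL1A1 and CD68 were detected on 24 arrays, CD14 on 21, and PMEL and CD207 on 20. The summed normalized signal of the 6 fibroblast markers was 522 to 910 in EGBG, 545 to 1180 at day 6 and 343 to 378 in undifferentiated cells. That of the 4 melanocyte markers was 246 to 366, 368 to 416 and 180 to 200 in the same 3 groups, and that of the 6 immune markers 3960 to 4780, 4240 to 5190 and 3890 to 6050. The part of these signals in the results below was not tested.

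Signals are given as normalized log2 values, on which 1 unit is a 2-fold difference, and levels are compared between arrays for one gene and never between genes. The number of arrays, 4 a group, limits the precision. Detection itself differed between groups. Of the 51 members, 19 were detected on all 4 EGBG plus SDSM arrays, 24 with EGBG, 20 with SDSM, 23 with PUT, 21 at day 6 and 28 in undifferentiated cells. Over all 12149 features, the share detected on all 4 arrays was 67.3% with EGBG plus SDSM, 71.2% with EGBG, 71.7% with SDSM, 72.9% with PUT, 70.5% at day 6 and 76.7% in undifferentiated cells, so undifferentiated cells had the highest share there as well. All these features had passed the detection filter, whereas 20 of the 51 members had not, so the member counts cannot be read against these shares. The number of members detected on 0 arrays of a group was 26 with EGBG plus SDSM, 24 with EGBG and 27 with SDSM. It was 25 with PUT, 25 at day 6 and 14 in undifferentiated cells. No share over all features is given for these counts. CDC45, GINS2, CDT1 and CHAF1B were detected on all 4 undifferentiated arrays and on at most 1 other array.

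**Figure D1:**
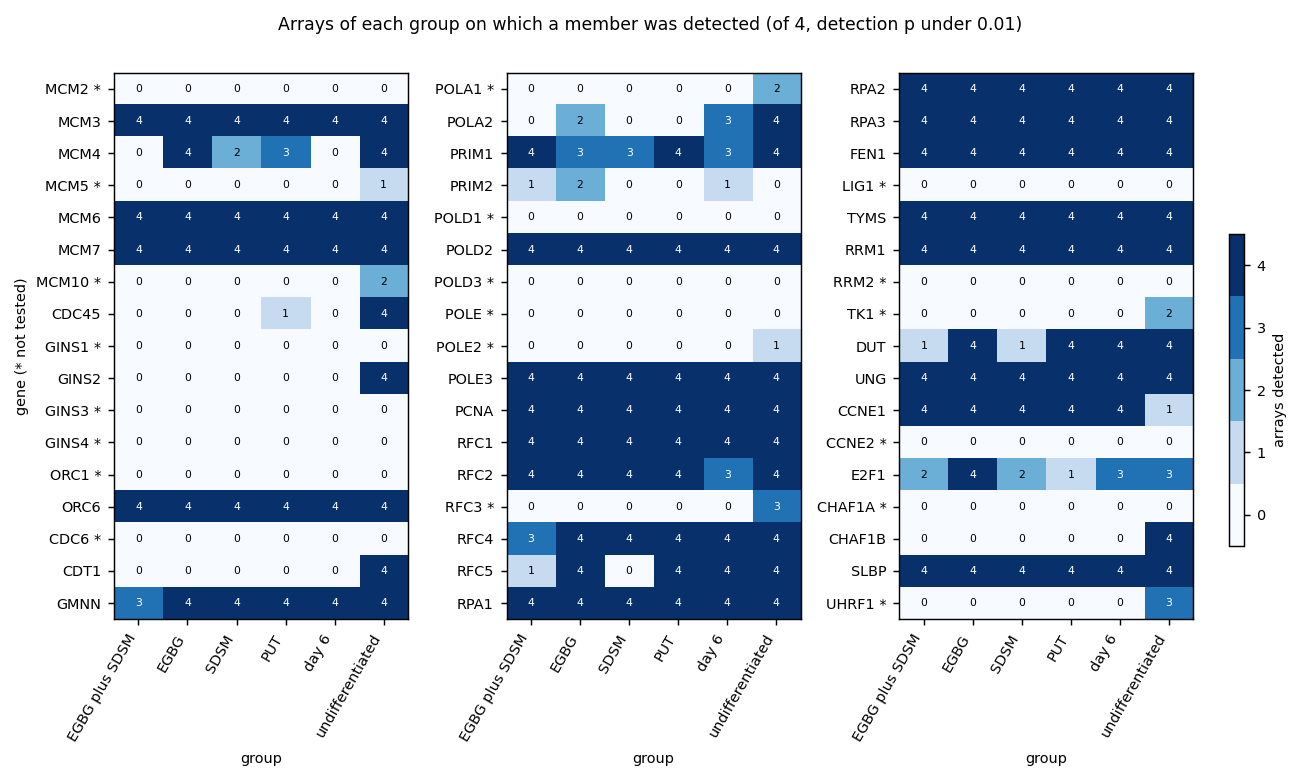
Number of arrays, of 4 in each group, on which each of the 51 members was detected, with genes down the page and groups across. Numbers and shade give the count, and asterisks mark the 20 members not tested. Undifferentiated cells had 28 members on all 4 arrays, more than any other group.

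The 20 members not tested were detected on fewer than 4 of 24 arrays. Of these, 13 were detected on 0 arrays: MCM2, GINS1, GINS3, GINS4, ORC1, CDC6, POLD1, POLD3, POLE, LIG1, RRM2, CCNE2 and CHAF1A. The other 7, MCM5, MCM10, POLA1, POLE2, RFC3, TK1 and UHRF1, were detected on 1 to 3 arrays, all of them undifferentiated. Of the 31 tested, 16 were detected on all 24 arrays and 6 on only 4 to 9. A member detected on few arrays entered the test through the groups where it was high, so counts over the 31 describe those genes and not the 51.

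The first comparison asks how replication genes differ between calcium-differentiated and undifferentiated keratinocytes. At day 6, 22 of the 31 tested members were lower and 1 was higher than in undifferentiated cells, at an adjusted p under 0.05 (limma, Benjamini-Hochberg over all features). Across all 12149 features 33.8% were lower and 23.8% higher, 57.6% in either direction. CDC45, GINS2, CDT1 and CHAF1B, among the 22, entered the test through the undifferentiated arrays, so they had to be lower at day 6 and add no support to the count. The median change was -0.83 for the members and -0.10 for all features. These are bulk cultures, in which fewer cells in S phase and less RNA per cell cannot be told apart.

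All 4 tested helicase ring subunits were lower at day 6. MCM6, one of the 6 ring subunits, read 7.69, 8.16, 8.12 and 8.01 at day 6, against 9.32, 9.72, 9.61 and 9.47 in undifferentiated cells. The 2 sets of arrays did not overlap, and the change was -1.54 ± 0.15 (SE, adjusted p = 3.79e-09). MCM7, another ring subunit, read 9.30, 9.59, 9.67 and 9.60 at day 6, against 10.53, 10.14, 10.45 and 9.88 (change -0.71 ± 0.14, adjusted p = 1.02e-04). Every day 6 value of MCM7 lay below every undifferentiated one. MCM3 changed by -0.98, and MCM4, detected on 0 day 6 arrays, was at least 1.65-fold lower.

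Both tested helicase activators were undetected at day 6. CDC45 read 5.69, 6.2, 6.25 and 6.15 at day 6, detected on 0 arrays, against 9.14, 7.68, 8.91 and 7.37 in undifferentiated cells. It was at least 3.2-fold lower, and the undifferentiated arrays themselves spread over more than 1 unit. GINS2 read 5.77, 6.29, 6.10 and 6.07 at day 6, against 8.89, 7.72, 8.80 and 7.27, and was at least 2.98-fold lower. In both genes undifferentiated replicates 1 and 3 were the brighter pair, as they were in CDT1, RFC5 and DUT, though not in MCM6 or TYMS.

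Of the licensing genes, CDT1 read 6.05, 5.36, 5.81 and 5.49 at day 6, against 8.05, 7.55, 8.26 and 7.56 in undifferentiated cells. It was detected on 0 day 6 arrays and was at least 2.4-fold lower. GMNN (geminin, which binds CDT1 and prevents relicensing) changed by -0.85 ± 0.22 (adjusted p = 0.00187). ORC6, an origin recognition subunit, read 15.25, 15.11, 14.78 and 15.41 at day 6, against 15.34, 15.21, 15.45 and 15.18. Its groups overlapped and it did not pass (change -0.16, adjusted p = 0.356). The probe used averaged 15.24, while a second ORC6 probe, detected on 0 of 24 arrays, averaged 5.53. Whether the probe used measures ORC6 was not tested, so the level and the lack of change of this gene are uncertain. Other tested members also had undetected probes. Of 3 probes each for MCM7, PCNA and UNG, 2 were detected on 0 arrays. MCM3, MCM4, POLD2, RFC2, RFC5, FEN1 and CCNE1 each had 1 such probe of 2.

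Among polymerase genes, PRIM1 read 6.74, 6.88, 6.90 and 6.56 at day 6, against 8.31, 8.41, 8.19 and 8.47 in undifferentiated cells. The groups lay more than 1 unit apart (change -1.58 ± 0.14, adjusted p = 8.12e-10), and its second probe changed by -1.63. POLE3, a histone-fold subunit of polymerase epsilon, read 10.75, 10.88, 10.85 and 10.63 at day 6, against 11.74, 11.55, 11.35 and 11.60 (change -0.78 ± 0.12, adjusted p = 3.66e-06). POLD2 and POLA2, accessory subunits of polymerases delta and alpha, changed by -0.83 and -0.46. PRIM2, the large primase subunit, was detected on 1 day 6 array and 0 undifferentiated ones and did not pass.

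The sliding clamp and 3 of 4 tested loader subunits were lower. PCNA, the clamp, read 9.55, 9.87, 10.05 and 9.46 at day 6, against 10.33, 10.85, 10.80 and 10.52 in undifferentiated cells (change -0.90 ± 0.18, adjusted p = 1.17e-04), without overlap. RFC4 read 7.83, 7.92, 8.25 and 7.90 at day 6, against 9.63, 9.35, 9.70 and 9.36 (change -1.53 ± 0.21, adjusted p = 5.99e-07). These groups were also separate, and a second RFC4 probe changed by -1.51. RFC5 changed by -0.84, while RFC2 did not pass (change -0.04, adjusted p = 0.898). RFC1, the large loader subunit, changed by -0.93 on the probe used, but its second probe, also detected on 24 arrays, gave 0.25 (adjusted p = 0.191), so its direction depends on the probe.

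RPA1, RPA2 and RPA3 form the single-strand binding complex. RPA3 read 9.55, 10.14, 10.03 and 9.75 at day 6, against 11.42, 11.29, 11.41 and 10.84 in undifferentiated cells (change -1.37 ± 0.16, adjusted p = 7.67e-08). RPA2 read 9.54, 9.60, 9.63 and 9.20 at day 6, against 9.75, 9.91, 9.76 and 9.84, a change of -0.32 ± 0.12 (adjusted p = 0.0248). Both were separate between groups, but the RPA2 change was 0 with the signals of the other deposited table and lost its call without day 6 replicate 4 (change -0.23) or undifferentiated replicate 2 (change -0.29). RPA1 changed by -0.18 and did not pass.

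FEN1, the flap nuclease of Okazaki fragments, did not pass at day 6. It read 7.41, 8.76, 7.97 and 8.22 at day 6, against 8.30, 8.68, 8.34 and 8.12 in undifferentiated cells, with day 6 replicate 1 lowest and replicate 2 highest of all 8 (change -0.27 ± 0.24, adjusted p = 0.361).

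In nucleotide supply, TYMS, which makes thymidylate, read 8.70, 8.63, 8.67 and 8.55 at day 6, against 9.72, 9.63, 10.50 and 9.79 in undifferentiated cells (change -1.28 ± 0.15, adjusted p = 1.01e-07). The groups did not overlap. DUT, which removes dUTP, changed by -0.83 ± 0.27 (adjusted p = 0.00988) with overlapping groups, its undifferentiated arrays spreading between 6.97 and 8.76. RRM1, the large ribonucleotide reductase subunit, read 10.80, 11.13, 11.37 and 11.35 at day 6, against 11.50, 11.39, 11.81 and 11.28, and did not pass (change -0.33, adjusted p = 0.12). UNG, which excises uracil from DNA, read 8.97, 9.18, 8.87 and 9.02 at day 6, against 8.43, 9.45, 9.27 and 9.41, and did not pass (change -0.13, adjusted p = 0.587). Both RRM1 and UNG overlapped between groups.

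CCNE1 (cyclin E1, a partner of CDK2 at the G1/S step) was the member that rose. It read 7.55, 7.96, 7.69 and 8.56 at day 6, against 6.33, 6.33, 6.83 and 6.19 in undifferentiated cells, where it was detected on 1 array (change 1.52 ± 0.18, adjusted p = 1.12e-07). All day 6 values lay above all undifferentiated ones. E2F1 changed by 0.28 and did not pass (adjusted p = 0.385).

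Both tested chromatin genes were lower. CHAF1B read 5.71, 5.66, 5.56 and 5.41 at day 6, detected on 0 arrays, against 7.71, 6.88, 7.11 and 7.15 in undifferentiated cells, and was at least 1.54-fold lower. SLBP, which binds the end of replication-dependent histone mRNAs, read 10.22, 10.05, 10.19 and 9.99 at day 6, against 10.92, 11.03, 10.85 and 10.81 (change -0.79 ± 0.13, adjusted p = 7.91e-06). The SLBP groups did not overlap on this probe, but its second probe, detected on 24 arrays, changed by -0.06 (adjusted p = 0.778).

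The second comparison asks how these genes differed between differentiating cells given the AMD1 inhibitor EGBG and day 6 cells. AMD1 activity and polyamine levels were not measured on these arrays. With EGBG, 18 of the 31 tested members were higher and 1 was lower than at day 6, where 21.3% of all features were higher and 17.7% lower, 39% in either direction. The median change was 0.51 for the members and 0.07 for all features. Of the 18, 17 were detected on all 4 EGBG arrays; the call for CHAF1B lay between arrays that all failed detection, as did the single lower call, CDC45, so neither is given a fold. The CDC45 call held in 2 of 8 fits that each left out 1 array. With the signals of the other deposited table, 10 members passed, all higher. Among the members described array by array, that setting ended the calls of MCM6 (change 0.25), MCM7 (change 0.24), RRM1 (change 0.22), RPA3 (change 0.44), FEN1 (change 0.56) and RFC4 (change 0.57). Arrays with the same replicate number deviated together in this comparison, and a fit with the number as a block gave the same count, 19. EGBG replicate 4, however, correlated as much with a day 6 array of another number (0.408) as with that of its own (0.401).

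The clamp and the single-strand binding genes stood high with EGBG. PCNA read 11.03, 10.91, 11.22 and 11.08 with EGBG, against 9.73 ± 0.27 at day 6 (SD, n = 4), a change of 1.33 ± 0.18 (SE, adjusted p = 1.71e-06). RPA2 read 10.63, 10.82, 10.60 and 10.77 with EGBG, against 9.49 ± 0.20 at day 6 (SD, n = 4), a change of 1.21 ± 0.12 (SE, adjusted p = 1.80e-08). In both genes every EGBG array lay above every day 6 array. RPA1 changed by 0.90 and RPA3, at 10.39, 10.29, 10.64 and 10.55 with EGBG, by 0.60 ± 0.16 (SE, adjusted p = 0.00433). The 2 other RPA1 probes changed by 0.54 and 0.57.

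RFC4 read 8.87, 8.62, 8.91 and 8.92 with EGBG, against 7.98 ± 0.19 at day 6 (SD, n = 4), a change of 0.85 ± 0.21 (SE, adjusted p = 0.00177). Its second probe changed by 0.91. RFC2 and RFC5 changed by 0.27 and -0.03 and did not pass. RFC1 changed by 0.48 on the probe used and by -0.40 (adjusted p = 0.0482) on its second probe, opposite directions that both passed.

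POLE3 read 12.06, 11.83, 12.06 and 11.97 with EGBG, against 10.78 ± 0.11 at day 6 (SD, n = 4), a change of 1.20 ± 0.12 (SE, adjusted p = 1.57e-08). It was the single polymerase or primase gene of 5 tested to pass. PRIM1 read 6.70, 6.70, 6.52 and 6.78 with EGBG, overlapping its day 6 arrays (change -0.10 ± 0.14, adjusted p = 0.627), and its second probe changed by 0. POLA2, PRIM2 and POLD2 changed by -0.06, 0.24 and 0.37 without passing.

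All 4 tested ring subunits passed as higher with EGBG. With the signals of the other deposited table MCM6 and MCM7 did not pass, and the outcome for MCM3 and MCM4 is not given. MCM6 read 8.75, 8.56, 8.50 and 8.83 with EGBG, against 7.99 ± 0.21 at day 6 (SD, n = 4), a change of 0.66 ± 0.15 (SE, adjusted p = 0.00109). MCM4 was at least 1.49-fold higher, with 4 EGBG arrays and 0 day 6 arrays detecting it. MCM7 read 9.76, 10.13, 9.98 and 10.18 with EGBG and changed by 0.47 ± 0.14 (SE, adjusted p = 0.00824). MCM3 changed by 0.60 with overlapping groups, its day 6 replicate 1 standing low at 7.62.

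Both tested helicase activators were undetected with EGBG. CDC45 read 5.52, 5.30, 5.31 and 5.23 with EGBG and GINS2 read 5.55, 5.58, 5.80 and 5.65, both detected on 0 arrays of EGBG and of day 6. Of the licensing genes, CDT1 read 5.66, 5.41, 5.45 and 5.69 with EGBG, again undetected in both groups. No fold is given for genes undetected on both sides. GMNN changed by 1.09 ± 0.22 (adjusted p = 3.32e-04), with its 4 EGBG arrays between 8.39 and 8.46. ORC6 read 15.13, 15.25, 14.76 and 15.31 with EGBG and did not pass (change -0.02, adjusted p = 0.912).

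Nucleotide supply and uracil removal gave 3 higher members of 4 tested. TYMS read 9.72, 9.77, 9.75 and 9.86 with EGBG, against 8.64 ± 0.07 at day 6 (SD, n = 4), a change of 1.14 ± 0.15 (SE, adjusted p = 1.87e-06). UNG read 10.15, 10.26, 9.74 and 10.28 with EGBG, against 9.01 ± 0.13 at day 6 (SD, n = 4), a change of 1.09 ± 0.19 (SE, adjusted p = 5.52e-05). Neither gene overlapped between groups. RRM1 read 11.77, 11.66, 11.55 and 11.74 with EGBG and changed by 0.52 ± 0.18 (SE, adjusted p = 0.025). That call was lost without day 6 replicate 1 and without EGBG replicate 1 or 4, with changes of 0.40, 0.49 and 0.50. DUT changed by 0.36 and did not pass, while its second probe, detected on 8 arrays, changed by 0.56 (adjusted p = 0.0336).

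FEN1 read 8.94, 8.91, 8.64 and 9.07 with EGBG, against 8.09 ± 0.56 at day 6 (SD, n = 4), and changed by 0.80 ± 0.24 (SE, adjusted p = 0.0113). Its groups overlapped, and without day 6 replicate 1 the change was 0.57 and did not pass. SLBP read 11, 11.02, 11.17 and 11.37 with EGBG and changed by 1.03 ± 0.13 (SE, adjusted p = 5.23e-07), its second probe by 0.89. CHAF1B read 6.08, 5.80, 6.12 and 6.39 with EGBG, all undetected. The cyclin CCNE1 read 8.30, 7.96, 8.27 and 8.39 with EGBG and, like E2F1, did not pass (changes 0.29 and 0.27, adjusted p = 0.224 and 0.456).

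**Figure D2:**
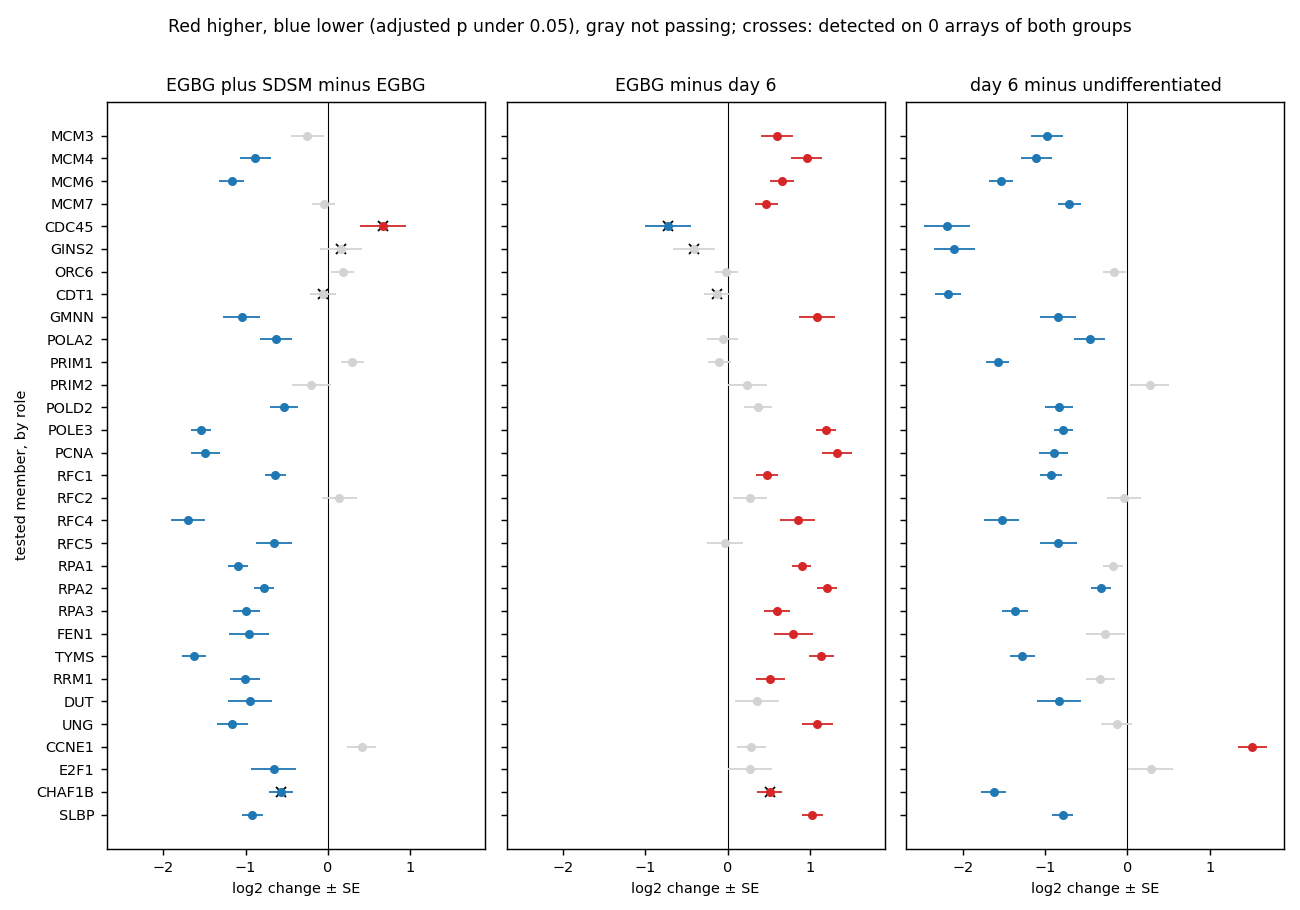
Log2 change ± SE of the 31 tested members, by role down the page, in EGBG plus SDSM minus EGBG, EGBG minus day 6 and day 6 minus undifferentiated. Red and blue mark members higher and lower at adjusted p under 0.05, gray those that did not pass, and crosses those detected on 0 arrays of both groups. In EGBG minus day 6, 18 points are red, while 21 points in EGBG plus SDSM minus EGBG and 22 in day 6 minus undifferentiated are blue.

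The third comparison asks how these genes differed when the polyamines downstream of AMD1 were added together with EGBG. With EGBG plus SDSM, 21 of 31 tested members were lower and 1 was higher than with EGBG alone, against 29% lower and 22.2% higher of all features. The median change was -0.66 for the members and -0.07 for all features. This comparison shares the EGBG arrays with the previous one, so high values on those arrays enter both with opposite sign, and the 2 are given side by side without a test of their likeness. CHAF1B among the lower calls and CDC45, the higher one, were undetected in both groups. The CDC45 call held in 2 of 8 fits that each left out 1 array. RFC1, also among the lower calls, changed by -0.64 on the probe used. Its second probe gave 0.2 (adjusted p = 0.293), so its direction again depends on the probe.

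RFC4 read 6.32, 7.31, 7.61 and 7.27 with EGBG plus SDSM, all below its EGBG arrays, a change of -1.70 ± 0.21 (adjusted p = 2.02e-07). TYMS read 7.85, 8.07, 8.36 and 8.28 with EGBG plus SDSM and changed by -1.63 ± 0.15 (adjusted p = 3.20e-09). POLE3 read 10.44, 10.36, 10.63 and 10.31 and changed by -1.54 ± 0.12 (adjusted p = 9.04e-11). In these genes the 2 groups were more than 1 unit apart.

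PCNA read 9.07, 9.62, 9.69 and 9.91 with EGBG plus SDSM and changed by -1.49 ± 0.18 (adjusted p = 1.66e-07). MCM6 read 7.19, 7.5, 7.59 and 7.65 and changed by -1.17 ± 0.15 (adjusted p = 5.53e-07). UNG read 8.54, 9.14, 8.88 and 9.22 and changed by -1.16 ± 0.19 (adjusted p = 1.56e-05). EGBG plus SDSM replicate 1 was the lowest of its group in each of these, and in RFC4 and TYMS as well.

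The single-strand binding genes were all lower. RPA2 read 9.98, 9.90, 9.88 and 9.95 with EGBG plus SDSM (change -0.78 ± 0.12, adjusted p = 6.90e-06), and RPA3 read 9.26, 9.32, 9.70 and 9.61 (change -0.99 ± 0.16, adjusted p = 1.41e-05). RPA1 changed by -1.09. RRM1 read 10.02, 10.84, 10.83 and 11.02 (change -1.01 ± 0.18, adjusted p = 5.53e-05). FEN1 read 7.35, 8.10, 7.89 and 8.38 (change -0.96 ± 0.24, adjusted p = 0.00209), and SLBP read 10.13, 10.33, 10.35 and 10.08 (change -0.92 ± 0.13, adjusted p = 1.44e-06). None of these 5 with array values overlapped its EGBG arrays.

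Of the 21 lower members, 5 had not passed with EGBG against day 6 and were lower with EGBG plus SDSM than with EGBG. They were DUT, E2F1, RFC5, POLA2 and POLD2. POLD2, detected on all 8 arrays, changed by -0.53, and E2F1, detected on 2 EGBG plus SDSM and 4 EGBG arrays, by -0.66. DUT and RFC5 were each detected on 1 EGBG plus SDSM array and 4 EGBG arrays, and their fitted changes of -0.95 and -0.65 rest partly on background signal. POLA2, detected on 0 EGBG plus SDSM and 2 EGBG arrays, is given no size. MCM4 was detected on 0 EGBG plus SDSM arrays and was at least 1.32-fold lower. MCM7 read 10.10, 9.92, 9.84 and 10 with EGBG plus SDSM and did not pass (change -0.05, adjusted p = 0.788), nor did MCM3 (change -0.25, adjusted p = 0.322). Of the 4 ring genes, MCM4 and MCM6 were lower with SDSM added. ORC6 at 15.45, 15.45, 15.05 and 15.21, PRIM1 at 6.94, 7.20, 6.78 and 6.98 and CCNE1 at 8.53, 8.59, 8.78 and 8.69 did not pass. CDC45 read 5.72, 5.72, 6.12 and 6.46, GINS2 read 5.37, 5.97, 6.18 and 5.70, CDT1 read 5.46, 5.52, 5.55 and 5.41 and CHAF1B read 5.46, 5.49, 5.70 and 5.48, all undetected.

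**Figure D3:**
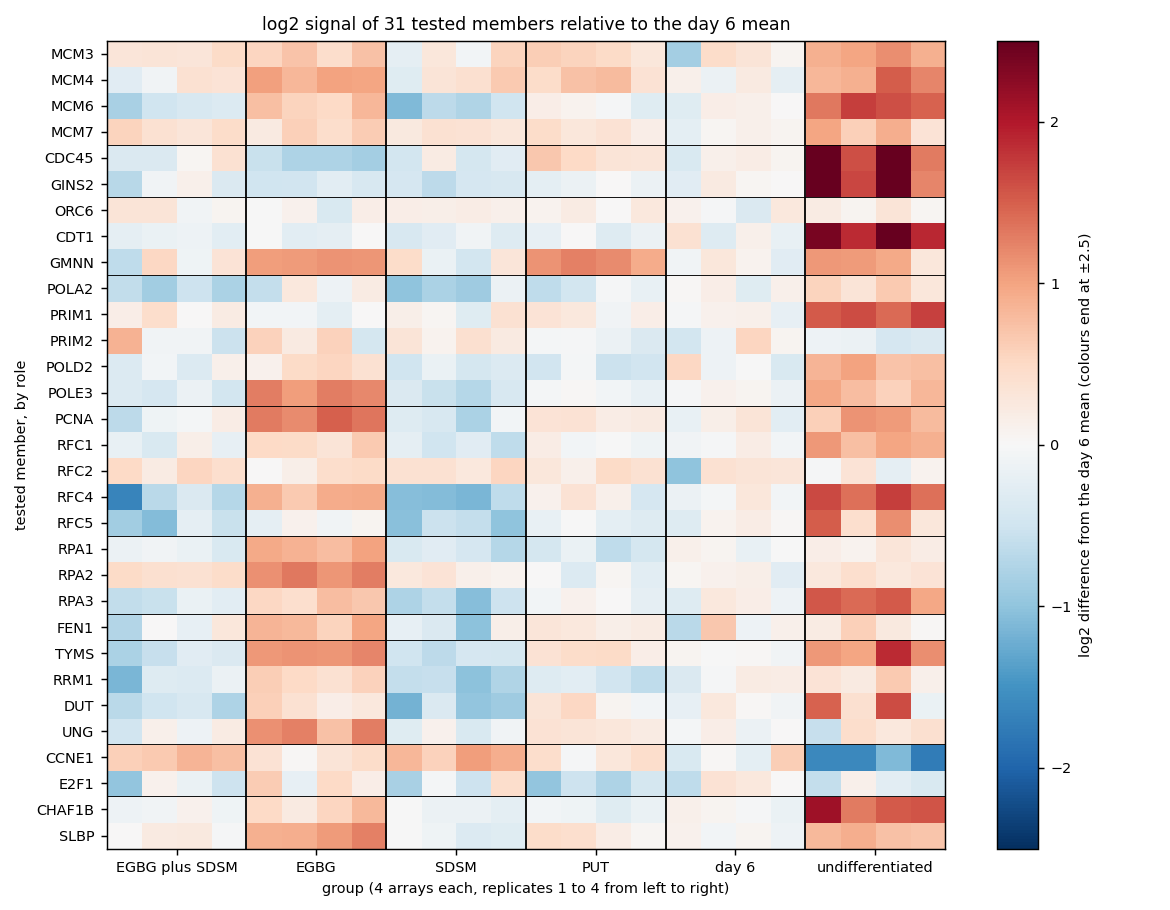
Normalized log2 signal of the 31 tested members on each of the 24 arrays, relative to the mean of that gene at day 6, with genes by role down the page and arrays by group across. Red is above and blue below the day 6 mean, and colours end at ±2.5. The helicase activators CDC45 and GINS2 and the licensing gene CDT1 are high on the 4 undifferentiated arrays, while PCNA and POLE3 are high on the EGBG and the undifferentiated arrays.

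EGBG cells were also set directly against undifferentiated cells. With EGBG, 12 tested members were lower and 6 higher than in undifferentiated cells, against 26.0% lower and 23.1% higher of all features (49.1% in either direction), and 13 did not pass. CDC45, GINS2 and CDT1 were lower by at least 3.15-fold, 2.93-fold and 2.36-fold, and CHAF1B by at least 1.51-fold. These 4 entered the test through the undifferentiated arrays, so they had to be lower here and add no support to the count of 12. PRIM1 changed by -1.67, MCM6 by -0.88, RFC5 by -0.87, RPA3 by -0.77 and RFC4 by -0.68. POLA2, POLD2 and RFC1 changed by -0.52, -0.45 and -0.44, RFC1 again on the probe used.

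The 6 members higher with EGBG than in undifferentiated cells were CCNE1 (change 1.81), UNG (change 0.96), RPA2 (change 0.89), RPA1 (change 0.72), PCNA (change 0.43) and POLE3 (change 0.42). PCNA averaged 11.06 ± 0.13 with EGBG and 10.63 ± 0.24 in undifferentiated cells (SD, n = 4 each), with an adjusted p of 0.046. TYMS and MCM4 changed by -0.14 and -0.15 and did not pass, with 95% intervals of -0.45 to 0.18 and -0.54 to 0.25. This comparison shares its arrays with those above.

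**Figure D4:**
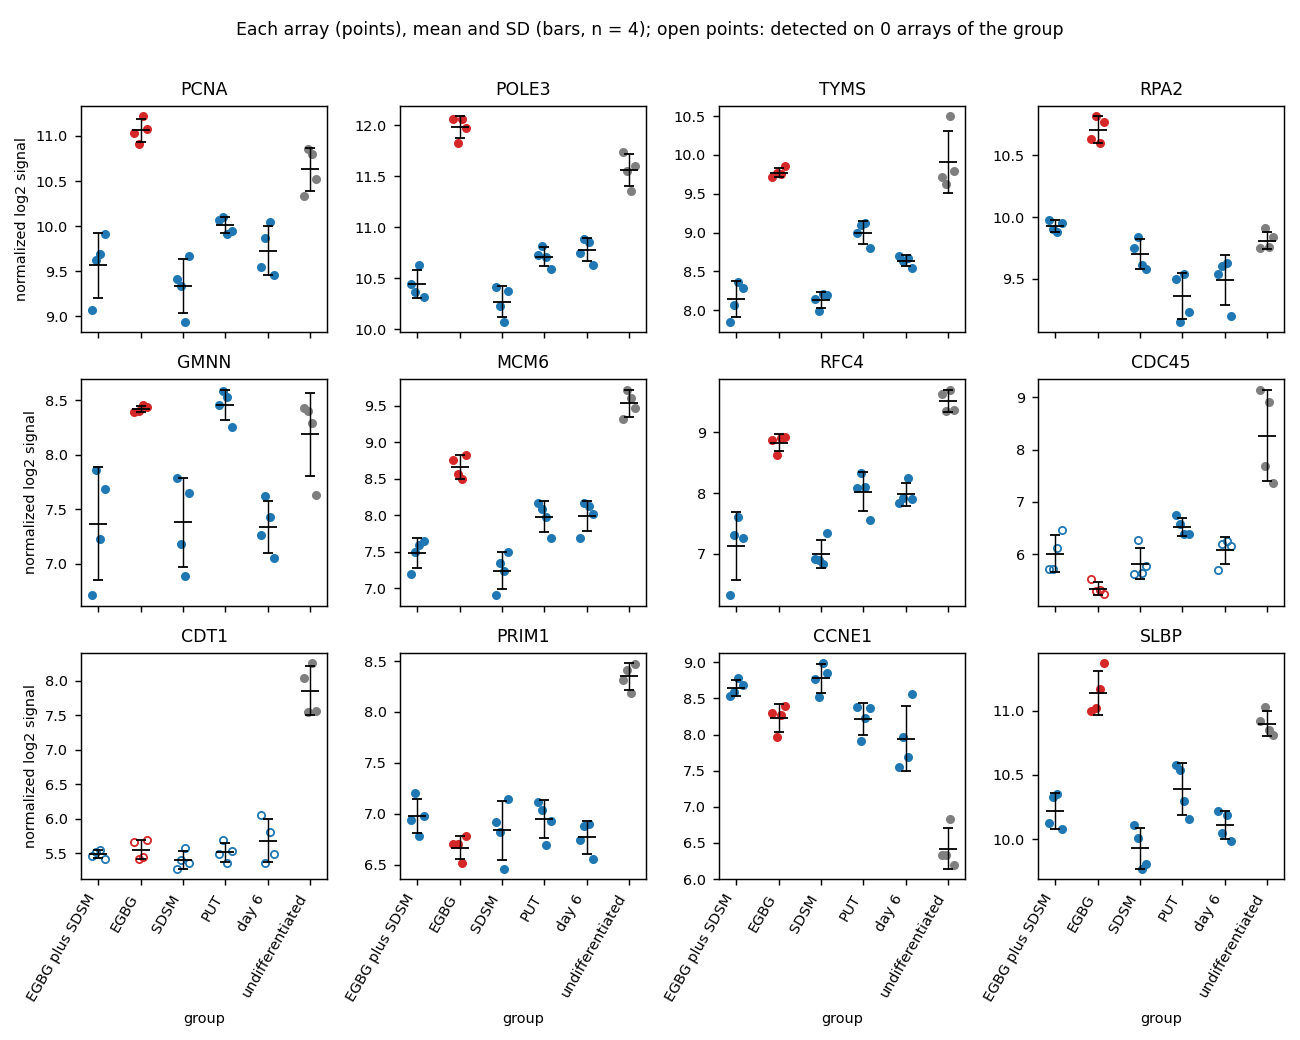
Normalized log2 signal of 12 members on each array (points), with the mean and SD of each group (bars, n = 4), groups in the same order in each panel and a separate vertical axis for each gene. EGBG is red, undifferentiated gray and the rest blue, and open points mark groups with 0 arrays detecting the gene. PCNA lies between 10.91 and 11.22 on the EGBG arrays, above all day 6 arrays, whereas CDT1 is undetected in every group but the undifferentiated one.

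With EGBG plus SDSM against SDSM alone, limma called 0 of 31 members in either direction, and 2 had an unadjusted p under 0.05. Of all features 0.988% passed, so 0 of 31 is near that share. Changes ranged from -0.22 to 0.34, and their 95% intervals from -0.72 to 0.81. Changes of the size seen for PCNA with EGBG alone lie outside these intervals. Smaller ones do not: the EGBG changes of MCM3 (0.60), RPA3 (0.60), RRM1 (0.52) and RFC1 (0.48) lie inside their own intervals here. Those intervals reach 0.64, 0.68, 0.63 and 0.53. Of the 31 members 25 had a positive change, with a median of 0.14 against 0.01 for all features. PCNA changed by 0.23 (95% interval -0.13 to 0.60), TYMS by 0.01 (-0.31 to 0.32) and GMNN by 0.00 (-0.46 to 0.45). Same-numbered arrays deviated together here as well, and the block left the count at 0.

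The EGBG effect with SDSM was tested against the EGBG effect without it. That difference passed for 9 of 31 members, all with a smaller effect in the presence of SDSM, against 8.76% of all features with a negative and 9.72% with a positive difference. The 9 were TYMS (-1.13 ± 0.22), PCNA (-1.10 ± 0.25), GMNN (-1.09 ± 0.31), POLE3 (-1.03 ± 0.17), UNG (-0.99 ± 0.27), RPA2 (-0.98 ± 0.17), SLBP (-0.73 ± 0.18), RPA1 (-0.64 ± 0.18) and MCM4. MCM4 was detected on 0 EGBG plus SDSM, 4 EGBG, 2 SDSM and 0 day 6 arrays, so its difference is not given a size here. The adjusted p-values of the 9 ran from 7.81e-05 for POLE3 to 0.0153 for GMNN. With the signals of the other deposited table, members passing numbered 4.

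SDSM was also given without EGBG. Against day 6, 11 tested members were lower and 1 was higher with SDSM, where 13% of all features were lower and 12.3% higher. RFC4 read 6.92, 6.90, 6.84 and 7.34 with SDSM, below its 4 day 6 arrays (change -0.98 ± 0.21, adjusted p = 0.00104). MCM6 read 6.90, 7.34, 7.24 and 7.5 and changed by -0.75 ± 0.15 (adjusted p = 6.90e-04), and RPA3 and RRM1 changed by -0.74 each. RFC5, detected on 0 SDSM arrays, was at least 1.39-fold lower. POLE3, TYMS, RPA1 and RFC1 changed by -0.51, -0.50, -0.45 and -0.41, RFC1 on the probe used. DUT, detected on 1 SDSM and 4 day 6 arrays, and POLA2, detected on 0 SDSM and 3 day 6 arrays, completed the 11, and for POLA2 no fold could be bounded.

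CCNE1 read 8.77, 8.52, 8.99 and 8.85 with SDSM and was higher than at day 6 (change 0.84 ± 0.18, adjusted p = 0.00138), with overlapping groups. PCNA at 9.42, 9.34, 8.94 and 9.67 did not pass (change -0.39, adjusted p = 0.108).

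With putrescine, the precursor upstream of AMD1, 2 tested members were higher and 1 was lower than at day 6, where 9.58% of all features were higher and 7% lower. GMNN read 8.46, 8.59, 8.53 and 8.26 with PUT, against 7.26, 7.62, 7.43 and 7.05 at day 6, without overlap (change 1.12 ± 0.22, adjusted p = 0.00126). MCM4 was at least 1.15-fold higher, detected on 3 PUT and 0 day 6 arrays. RPA1 changed by -0.42 ± 0.12 (adjusted p = 0.0225). Without PUT replicate 1, or without PUT replicate 3, 1 member passed. PCNA changed by 0.28 (95% interval -0.09 to 0.64), POLE3 by -0.07 (-0.31 to 0.17) and TYMS by 0.37 (0.05 to 0.68, adjusted p = 0.102).

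SDSM and PUT were both used at 1 mM from day 3 and differ in structure, spermidine and spermine carrying aminopropyl groups that putrescine lacks. This is the single pair of added polyamines in the series. With SDSM, 10 tested members were lower and 1 was higher than with PUT, against 9.93% lower and 7.10% higher of all features. GMNN read 7.79, 7.18, 6.89 and 7.65 with SDSM, below its 4 PUT arrays (change -1.08 ± 0.22, adjusted p = 0.00145). DUT, detected on 1 SDSM and 4 PUT arrays, was also lower. RFC4 changed by -1.02, TYMS by -0.87, MCM6 by -0.74, RPA3 by -0.69 and PCNA by -0.66. SLBP, POLE3 and RFC1 changed by -0.47, -0.44 and -0.41, RFC1 on the probe used, and CCNE1 by 0.56. With the replicate number as a block, since same-numbered arrays deviated together, 14 members passed, while 6 did with the signals of the other deposited table. MCM7 and RPA1 did not pass, with 95% intervals of the difference of -0.29 to 0.28 and -0.28 to 0.23.

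With EGBG plus SDSM against day 6, 6 tested members were lower (RFC4, MCM6, TYMS and POLE3, changes -0.85 to -0.34, and RFC5 and POLA2, detected on 1 and 0 of the EGBG plus SDSM arrays) and 3 higher (CCNE1, RPA2 and MCM7, changes 0.70, 0.43 and 0.42), against 7.70% lower and 8.72% higher of all features. This count depended on the settings: fitted on these 2 groups alone 1 member passed, and 5 did with array weights or with the signals of the other deposited table. Leaving out EGBG plus SDSM replicate 1 gave 4, and leaving out EGBG plus SDSM replicate 2 or day 6 replicate 2 or 3 gave 5. PCNA, UNG and GMNN, all higher with EGBG, changed here by -0.16, -0.06 and 0.03, and none passed.

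Other genes of the pathway were taken from 5 lists, whose counts are read against the same shares of all features, 23.8% higher and 33.8% lower at day 6. At day 6, of 22 tested G1/S control genes 5 were higher and 13 lower than in undifferentiated cells, with CCND3 (cyclin D3) at -2.66, E2F7 at -2.63, LIN54 at 1.88 and CKS1B at -1.73; E2F7 was detected on 1 day 6 array, so its size rests partly on background signal. MYC changed by -1.64, CCND1 (cyclin D1) by -0.84 and E2F4 by -0.56. Of 14 other fork and origin genes 1 was higher and 8 lower, led by ORC2 (-1.60), ORC3 (-1.41), ORC5 (-1.39) and RNASEH2A (-1.28). Of 9 other nucleotide supply genes 1 was higher and 7 lower, among them MTHFD2 (-1.54) and SHMT1, the last detected on 1 day 6 array. Of 7 other chromatin genes 1 was higher and 4 lower, including SSRP1 (-1.49) and DNMT1 (-1.45). Of 5 tested cyclin-dependent kinase inhibitors, CDKN2B (3.07) and CDKN1A (0.30) were higher and CDKN2A, detected on 1 day 6 array, lower, and CDKN1B did not pass (0.06).

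With EGBG against day 6, 21.3% of all features were higher and 17.7% lower. Of 9 nucleotide supply genes 5 were higher and 0 lower. RRM2B, a p53-inducible ribonucleotide reductase subunit (adjusted p = 1.05e-10), and SHMT1 were each detected on 4 EGBG arrays and 1 day 6 array, so the sizes of their fitted changes, 2.48 and 1.55, rest partly on background signal. NME1 changed by 1.37. Of 7 chromatin genes 6 were higher and 0 lower, led by RBBP4 at 1.27. Of 5 kinase inhibitors 3 were higher and 0 lower: CDKN2B at 0.93, CDKN1A (p21) at 0.77 and CDKN2D at 0.51, while CDKN1B did not pass (-0.12). Of 22 G1/S control genes 5 were higher and 5 lower, CDK4 and CKS1B at 1.22 and 1.21 but CCND1 at -1.24 and MYC at -1. E2F4 did not pass (-0.06). Of 14 fork and origin genes 3 were higher and 2 lower, with ORC3 at 1.19, ORC5 at 0.99, TOPBP1 at 0.77 and POLD4 at -1.76.

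With SDSM added to EGBG, in a comparison that shares the EGBG arrays, 22.2% of all features were higher and 29% lower. RRM2B was detected on 0 EGBG plus SDSM arrays and was at least 3.91-fold lower than with EGBG, and SHMT1 was at least 2.33-fold lower. NME1 changed by -1.51, SHMT2 by -0.76, and in all 6 of 9 nucleotide supply genes were lower and 1 higher. Of the 5 kinase inhibitors 4 were lower and 0 higher, CDKN2B by -1.84 and CDKN1A by -0.83, with CDKN1B at -0.07 not passing. Of 22 G1/S control genes 5 were higher and 4 lower, CCND1 at 1.60 and MYC at 1.16 against CKS1B at -1.63. E2F2 was at least 2.35-fold higher, and E2F4 did not pass (0.21). Of 14 fork and origin genes 2 were higher and 4 lower, with ORC3 at -1.76 and POLD4 at 1.40. Of 7 chromatin genes 6 were lower and 0 higher, led by SUPT16H at -1.11 and RBBP7 at -1.10.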

How the data were processed

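The authors deposited a linear, background-subtracted intensity per probe in the series matrix, and a second deposited table pairs each signal, per the file headers, with a detection p-value. GenomeStudio is named in the submitters' processing notes without version or settings. The signals of the second table are floored and appear already normalized, so they served only as an alternative.

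Intensities were background-corrected and quantile-normalized with neqc (offset 16) in limma 3.58.1 and R 4.3.3. A probe was kept if 4 or more of the 24 arrays detected it at p under 0.01 (14304 probes), and the brightest probe stood for a gene, leaving 12149 features, 9034 of them with a symbol. Probes were named from the supplied platform annotation, which pairs 30102 probes with 1 symbol, 8 with several and 17194 with none. All 6 groups, taken from the sample labels, entered a single lmFit and eBayes fit, with two-sided contrasts and Benjamini-Hochberg adjustment over all features at 0.05. The fit was tested on simulated data. A bound ("at least") sets the brighter group against the lowest detected signal or the undetected gene's signal if that is higher.

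Members described array by array are the 5 largest falls and rises past the threshold in each of the first 3 comparisons and the tested member of each role with the highest mean signal, which served only to choose it. Members and lists were chosen with earlier results of these data known. Promoters are from RefSeq, GRCh38.p14.

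The labels number the replicates 1 to 4 without saying what a number marks. Same-numbered arrays deviated together, every correlation of their deviations being over 0.1, in EGBG against day 6 (0.287 to 0.571), EGBG plus SDSM against SDSM (0.253 to 0.391) and SDSM against PUT (0.19 to 0.337), but not in the other 6 comparisons. Alternatives changed the background correction, normalization, filter, probe choice, signal table, array weights, groups in the fit, replicate block and arrays included.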

Additional observations from a re-analysis of the deposited data

Results flagged for a closer look

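Among 19 members described array by array, 114 sets of 4 arrays were screened for an array far from the other 3, and 4 were found, where chance gives about 1 set in 20. GINS2 was low on SDSM replicate 2, at 5.41 against 5.64 to 5.66 on the others, with all 4 arrays undetected. CHAF1B was high on EGBG plus SDSM replicate 3, at 5.70 against 5.46 to 5.49, also undetected throughout. RFC4 was low on EGBG replicate 2, at 8.62 against 8.87 to 8.92, and high on SDSM replicate 4, at 7.34 against 6.84 to 6.92.

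The effect of EGBG differed between cells with and without SDSM in 9 members, by the tested difference of the effects. The fitted difference was -1.15 for MCM4 (adjusted p = 0.00368), but MCM4 was detected on 0 EGBG plus SDSM, 2 SDSM and 0 day 6 arrays, so this size rests partly on background signal. The effects with and without SDSM were 0.00 and 1.09 for GMNN (difference -1.09), 0.17 and 1.20 for POLE3 (-1.03), and 0.23 and 1.33 for PCNA (-1.10). They were 0.25 and 0.90 for RPA1 (-0.64), 0.23 and 1.21 for RPA2 (-0.98), and 0.01 and 1.14 for TYMS (-1.13). For UNG they were 0.10 and 1.09 (-0.99), and for SLBP 0.30 and 1.03 (-0.73).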

How the results depend on the processing

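Of 1014 recomputed changes of single members, 972 kept their direction and side of the threshold, 32 lost the call, 9 gained one and 1 did not keep its sign, RPA2 at day 6, which was 0 (adjusted p = 1) with the signals of the other deposited table. Of 188 recomputed counts, 175 stayed within 1.5 times; the cause of the other 13 was not tested. With the signals of the other deposited table, EGBG against day 6 gave 10 members in place of 19, SDSM against PUT 6 in place of 11, EGBG plus SDSM against day 6 gave 5 in place of 9, and the difference of EGBG effects 4 in place of 9. Array weights gave 5 for EGBG plus SDSM against day 6 and 5 in place of 3 for PUT against day 6. Fitting only the groups compared gave 1 for EGBG plus SDSM against day 6. Leaving out 1 array at a time gave 4 to 9 for EGBG plus SDSM against day 6, and 1 to 4 for PUT against day 6. The ranges were 21 to 23 for day 6 against undifferentiated, 16 to 19 for EGBG against day 6, 20 to 21 for EGBG plus SDSM against EGBG, 0 to 0 for EGBG plus SDSM against SDSM, 10 to 13 for SDSM against day 6, 9 to 11 for SDSM against PUT, 15 to 19 for EGBG against undifferentiated, and 9 to 10 for the difference. The replicate block gave 23, 19, 22, 0, 12, 14, 19 and 9 in that same order of 8, 9 for EGBG plus SDSM against day 6 and 4 for PUT against day 6. The median change of all features at day 6 was -0.10, but -0.04 under cyclic loess and 0 with the other table. A slide block was not run, since the headers used give no slide. Signal over background limits 20 members to no test.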

Other observations

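Without the filter on dim probes, the 20 members left out of the test were fitted at day 6 against undifferentiated cells, and 6 passed as lower and 0 as higher. They were RFC3 (a clamp loader subunit), TK1 (thymidine kinase), UHRF1 (which helps copy DNA methylation), POLA1 (the catalytic subunit of polymerase alpha), POLE2 (a subunit of polymerase epsilon) and GINS3 (a GINS subunit). All 6 were undetected at day 6, and GINS3 on every array, so no size is given. Apart from GINS3 they were detected on undifferentiated arrays alone, so their direction follows from where they were detected. The share of all features passing in this fit is not given, so 6 of 20 cannot be read against it. In the same fit 2 were higher and 0 lower with EGBG against day 6. With EGBG plus SDSM against EGBG, 0 were higher and 3 lower. The values were looked at after those of the tested members.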
